A study of Mus musculus with 10 samples.

Results

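The genes described here are the deubiquitinases of mouse cerebral cortex, the enzymes that take ubiquitin off other proteins. Members were chosen by symbol: the ubiquitin-specific proteases (Usp and a number), the Otud and Otub genes of the ovarian tumour (OTU) family, the ubiquitin C-terminal hydrolases Uchl1 to Uchl5, the Josephin-domain genes Atxn3, Josd1 and Josd2, and the metalloproteases Mysm1 and Brcc3. Of the 75 protein-coding genes of the annotation with such a symbol, 66 had a row among the 14276 genes of the count table, and the other 9 were not analysed here. All 66 passed the low-count filter of the test, but the table itself held only genes with at least 0.582 CPM (reads of a gene as a share of its library, unscaled here and scaled with TMM factors in the values that follow) in at least 5 libraries.

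Ubiquitin is a small protein that ligases attach to lysines of other proteins, and a chain of it can send its target to the proteasome or change its traffic, partners or activity. Deubiquitinases cut these tags away, recycle ubiquitin and so oppose the ligases. In neurons they are known for roles in protein turnover at synapses, in mitophagy and in chromatin. Brap, the gene targeted in these mice, encodes a ubiquitin ligase that restrains Ras to MAP kinase signalling, and Usp15 is known from human cells to remove ubiquitin from its product.

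The 10 libraries hold RNA of the cerebral cortex of C57BL/6 mice, all 3 months of age. The 5 control libraries came from Cre- mice, 3 with 1 floxed and 1 normal Brap allele (flox/wt) and 2 with both alleles floxed (flox/flox). The 5 libraries labelled BrapcKO came from Cre+ mice, 3 with 1 floxed and 1 deleted allele (flox/ko) and 2 flox/flox. Neither the driver of Cre nor its target cells are given, and Cre and knockout cannot be told apart. Whether each library is a separate animal is not stated, and p-values then reflect only how far these libraries spread, which may be technical.

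Total counts ran from 17188901 to 28991874, so 1 CPM rests on 17.2 reads in the shallowest library. Titles carry a code, B1 or B2, of unstated meaning, which was uneven over the groups (control 2 B1 and 3 B2, BrapcKO 4 B1 and 1 B2) and was a term of the fit. Y-linked RNA was uneven too, with Ddx3y between 115 and 148 CPM in 4 BrapcKO libraries and 1 control and 0.052 CPM or less elsewhere. The targeted gene, Brap, did not fall in the libraries labelled BrapcKO, at 103.8 ± 9.155 against 88.4 ± 8.58 CPM (SD, n = 5 each; log2 difference 0.23, SE 0.10, adjusted p 0.18). Brap was called higher in flox/ko Cre+ libraries set against flox/wt ones (0.39, adjusted p 0.04) and was at -0.04 in the flox/flox libraries. Tested directly in edgeR, the flox/flox difference minus the flox/ko one was -0.43 (SE 0.14, unadjusted p 0.012, adjusted p 0.79). It was not called, so a difference of Brap between the genotype pairs was not established. The table holds 1 count per gene, so the loss of an exon could not be checked, and the directions given here rest on the labels alone. Of the markers listed for other cell types, 4 of 6 reactive astrocyte genes and 2 of 10 microglia genes were called higher in the BrapcKO libraries, against 3.12% of all genes. With the Y-linked score as a further term these calls were 1 and 0. Summed, the reactive astrocyte genes held 175.7 to 219.4 CPM in control and 452.7 to 1471 in BrapcKO, and the microglia genes 355.6 to 381.5 and 491.5 to 1366. Of 10 general astrocyte genes 0 were called, with sums of 5301 to 7080 CPM in control and 4683 to 7883 in BrapcKO. Of 6 endothelial genes 0 were called. Neuron markers (10 genes, 1 higher and 3 lower, against 4.95% of all genes lower) held 7894 to 8648 and 6665 to 8019 CPM. Of 6 oligodendrocyte precursor genes 1 was called higher, and of 8 oligodendrocyte genes 0 were called, with sums of 3415 to 4753 CPM in control and 2543 to 3492 in BrapcKO. The part of these genes in the results was not tested, and in such bulk RNA fewer cells of a type and less RNA per cell cannot be told apart.

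Most deubiquitinase genes did not pass the test between the groups. Of 66 members 4 were called, 3 lower and 1 higher in the BrapcKO libraries. That is 6.06% of the members, against 8.07% of all genes (3.12% higher and 4.95% lower), which is a share near that of the table. Otud1, Usp43 and Usp6nl fell and Uchl1 rose. The median log2 difference was 0.01 over the members and 0.01 over all genes, with 35 members above 0 and 31 below.

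The data bounded most of the other differences closely. In 52 of the 66 members the whole 95% interval lay within 0.5 of 0 on the log2 scale, and in 61 within 1. At an unadjusted p under 0.05, 13 members differed (19.7%, against 22.2% of all genes), 6 higher and 7 lower. Members not called ran from -0.41 (Uchl4) to 0.86 (Usp51), both of low expression and chosen for naming after their values were seen.

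**Figure D1:**
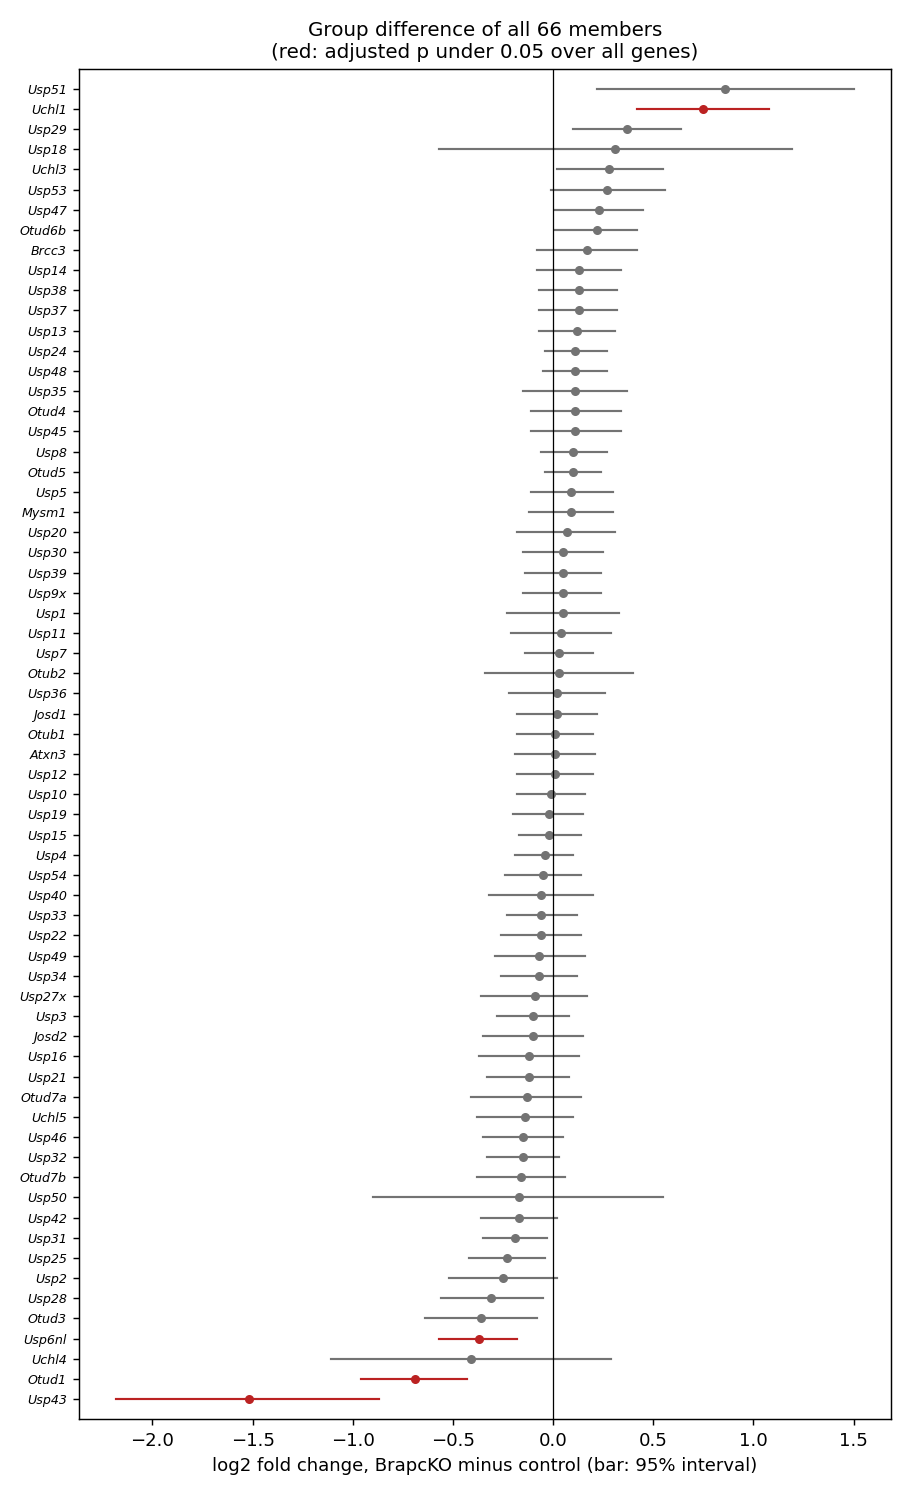
Log2 fold change, BrapcKO minus control, of all 66 members from the fit with title code, with 95% intervals. The 4 called members are in red, from Usp43 at -1.52 to Uchl1 at 0.75, and 54 members lie within 0.25 of 0.

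The promoters of the called members are shown because these members passed the test between the groups. RefSeq (GRCm38.p6) gave a window for 3 of the 4, which are Otud1 at chr2:19657481-19657730, Usp6nl at chr2:6322507-6322756 and Uchl1 at chr5:66675871-66676120, all on the plus strand. Each line holds the 250 bases before the annotated start, and for Usp6nl, which has 2 annotated starts, the upstream one. Capitals mark matches on either strand to the E-box CACGTG, to TGACG, which is the core of the cyclic AMP response element, to the Sp1 motif GGGCGG or to the motif TATAAA.
Otud1: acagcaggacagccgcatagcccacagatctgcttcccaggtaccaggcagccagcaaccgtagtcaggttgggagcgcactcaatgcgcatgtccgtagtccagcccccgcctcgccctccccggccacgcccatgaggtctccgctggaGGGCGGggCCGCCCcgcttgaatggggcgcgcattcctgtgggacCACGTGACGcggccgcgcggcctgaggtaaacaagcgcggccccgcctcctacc
Usp6nl: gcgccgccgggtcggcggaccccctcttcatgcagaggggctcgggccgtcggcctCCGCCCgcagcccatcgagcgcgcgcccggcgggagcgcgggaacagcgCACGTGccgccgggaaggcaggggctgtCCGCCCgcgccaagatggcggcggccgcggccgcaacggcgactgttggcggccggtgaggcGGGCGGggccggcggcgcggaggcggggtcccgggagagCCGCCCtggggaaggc
Uchl1: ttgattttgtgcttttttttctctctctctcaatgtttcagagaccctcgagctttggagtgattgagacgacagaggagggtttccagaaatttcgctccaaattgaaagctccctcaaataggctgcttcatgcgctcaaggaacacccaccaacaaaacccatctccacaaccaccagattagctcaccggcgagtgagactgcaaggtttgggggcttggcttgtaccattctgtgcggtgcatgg

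G and C made up 69.2% of the Otud1 window, 81.6% of the Usp6nl window and 48.8% of the Uchl1 window, against a median of 52.4% over all 32851 windows. The dinucleotide CG occurred 24, 43 and 7 times. The window of the second Usp6nl start (chr2:6352486-6352735, not printed) had the same G and C share as Uchl1, 48.8%, with 6 CG, no E-box and 1 copy of GGGCGG. The Otud1 window and the upstream Usp6nl window each held 1 E-box, found in 6.02% of all windows, and 2 and 4 copies of the Sp1 motif, found in 32.7%. In Otud1 the E-box overlapped a TGACG, a core found in 17.8% of windows. None of them held a TATAAA, found in 12.4%, and the Uchl1 window held none of these motifs.

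Otud1 encodes an OTU-family deubiquitinase with roles in innate immune signalling. Otud1 (ENSMUSG00000043415.5, GRCm38 chromosome 2, 19657752 to 19660583) stood at 25.0, 25.8, 26.7, 29.1 and 24.4 CPM in control 08, 09, 22, 23 and 24. The values of BrapcKO 04, 05, 06, 07 and 21 were 12.6, 19.2, 14.7, 14.2 and 17.5 CPM. Every control library lay above every BrapcKO library, with BrapcKO 05 the highest of its group. The fall from 26.2 ± 1.87 to 15.65 ± 2.67 CPM (SD, n = 5 each) was -0.69 on the log2 scale (SE 0.12, 95% interval -0.96 to -0.43, adjusted p 0.0046).

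The Otud1 call held in most other fits. It was -0.74 with group as the only term (adjusted p 0.0071), where 2 members and 4.32% of all genes were called. With title code and Y-linked score as terms it was -0.89 (adjusted p 0.013) and was the 1 member called, against 2.24% of all genes. In the B1 libraries alone it was -0.75 (adjusted p 0.042), again the 1 member called against 2.91% of all genes. In the B2 libraries, which hold 1 BrapcKO library, it was -0.62 (adjusted p 0.23), with 0 members and 0.381% of genes called. Leaving out any 1 library gave -0.76 to -0.64 (adjusted p 0.0012 to 0.03). DESeq2 called Otud1 and the other 3, with Usp29 (adjusted p 0.049) beside them, 5 members in all, against 11.8% of all genes.

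Usp43, one of the less studied ubiquitin-specific proteases, was called lower at a low level of expression. Usp43 (ENSMUSG00000020905.11, chromosome 11, 67854523 to 67922153, minus strand) had 6.41, 2.52, 2.39, 3.0 and 3.82 CPM in control 08, 09, 22, 23 and 24. In BrapcKO 04, 05, 06, 07 and 21 its values were 1.5, 2.13, 1.94, 1.32 and 0.85 CPM. The groups did not overlap, though the lowest control and the highest BrapcKO library lay close together and control 08 stood above the rest. Usp43 fell from 3.63 ± 1.65 to 1.55 ± 0.509 CPM (SD, n = 5 each), by -1.52 on the log2 scale (SE 0.30, adjusted p 0.0085).

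That call rested on single libraries and on the terms of the fit. Without control 08 the Usp43 difference was -1.15 (adjusted p 0.11), and without BrapcKO 21 it was -1.38 (0.063). With group as the only term it was -1.23 (adjusted p 0.06), and with both terms -1.59 (0.077). Of its exon bases 12.8% are shared with 9130017K11Rik on the other strand, whose reads cannot be told apart here.

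Usp6nl was the third gene to fall, and it is a deubiquitinase by name only. It encodes RN-tre, a GTPase-activating protein for Rab proteins of the endocytic route, and matched the symbol pattern through its likeness to human USP6. Usp6nl (ENSMUSG00000039046.15, chromosome 2, 6322667 to 6446390) stood at 47.5, 42.1, 46.2, 47.6 and 43.0 CPM in control 08, 09, 22, 23 and 24. In BrapcKO 04, 05, 06, 07 and 21 it stood at 37.0, 36.5, 30.7, 37.6 and 33.6 CPM. The spread within each group was narrow and the groups did not overlap.

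The Usp6nl fall, from 45.3 ± 2.57 to 35.1 ± 2.89 CPM (SD, n = 5 each), was the smallest of the 4 called differences, at -0.37 (SE 0.09, adjusted p 0.021). It was also called with group as the only term (-0.37, adjusted p 0.032). With title code and Y-linked score it was -0.38 and not called (adjusted p 0.15). It lost its call without control 08 or BrapcKO 21 (-0.34 in both, adjusted p 0.11 and 0.13).

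Uchl1, a hydrolase so abundant in neurons that its protein serves as a neuronal marker (PGP9.5), was higher in the BrapcKO libraries. Uchl1 (ENSMUSG00000029223.12, chromosome 5, 66676091 to 66687234) stood at 275.3, 282.4, 322.8, 295.2 and 472.4 CPM in control 08, 09, 22, 23 and 24. In BrapcKO 04, 05, 06, 07 and 21 it stood at 400.7, 387.2, 567.8, 525.3 and 606.8 CPM. The groups overlapped through 1 library, control 24, which lay above BrapcKO 04 and 05. The rise from 329.6 ± 81.9 to 497.5 ± 99.0 CPM (SD, n = 5 each) was 0.75 (SE 0.15, 95% interval 0.42 to 1.08, adjusted p 0.010).

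The Uchl1 difference ran from 0.55 to 0.90 over the other fits, and the call did not hold throughout. With group as the only term it was 0.59 (adjusted p 0.082), and with title code and Y-linked score 0.79 (0.091). Without control 08 or BrapcKO 21 it was 0.74 and 0.75 (adjusted p 0.051 and 0.081), and without control 24 it was 0.83 (0.0026). Of the 10 neuron markers 3 were called lower and 1 higher, against 4.95% and 3.12% of all genes. The neurofilament subunits Nefl and Nefm were at -0.69 and -0.55 and Syt1 at -0.34 (adjusted p 0.00021, 0.0044 and 0.0063). Gad1, which makes GABA, was at 0.57 (adjusted p 0.0077). These markers were named after their values were seen. Of the exon bases of Uchl1, 18.1% are shared with the antisense gene Uchl1os.

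**Figure D2:**
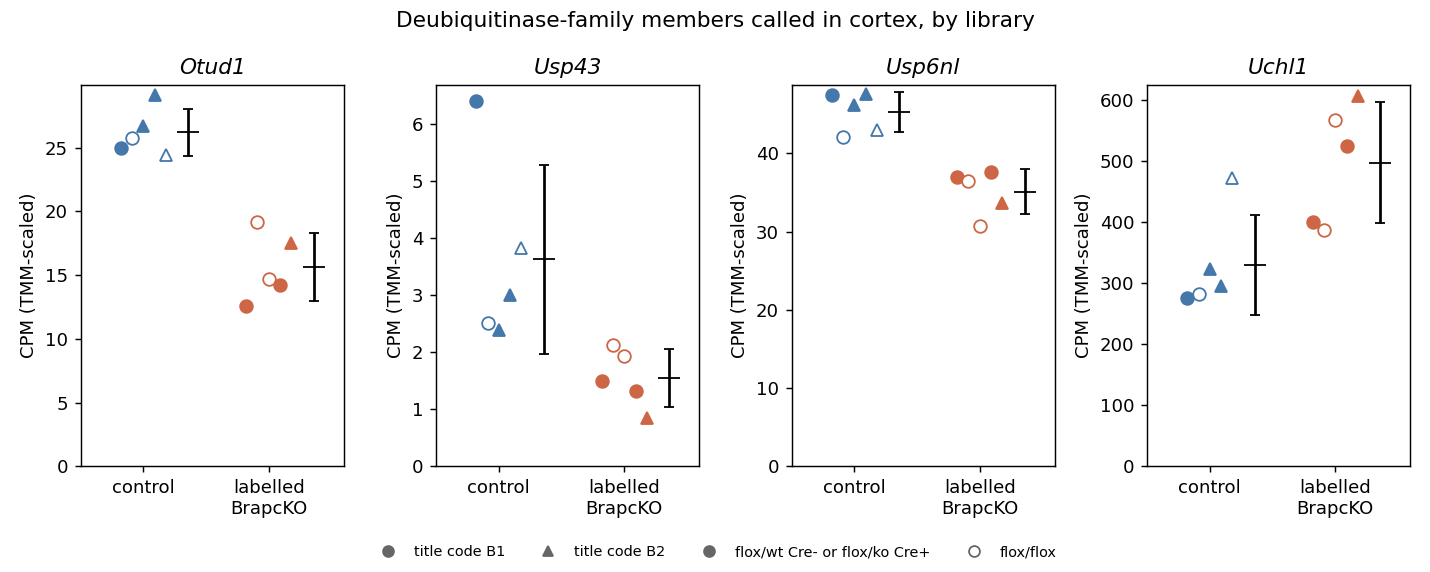
TMM-scaled CPM of the 4 called members in each library, with circles for title code B1, triangles for B2, open symbols for flox/flox and bars for mean ± SD (n = 5). For Otud1, Usp43 and Usp6nl all control libraries lie above all BrapcKO libraries, while for Uchl1 control 24 at 472.4 CPM lies within the BrapcKO range.

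The groups were fully separate in 4 of the 66 members, against 6.82% of all genes. These were Otud1, Usp43 and Usp6nl and, in the other direction, Otud5, an X-linked OTU deubiquitinase named here after its values were seen. Otud5 ran from 75.3 to 81.9 CPM in control and from 83.6 to 88.6 in BrapcKO, a difference of 0.10 that was not called (adjusted p 0.42).

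The 4 called members moved in the same direction in both genotype pairs. With 3 flox/ko Cre+ libraries set against 3 flox/wt Cre- libraries, Otud1 differed by -0.81, Usp43 by -1.82, Usp6nl by -0.40 and Uchl1 by 0.90 (adjusted p 0.011, 0.019, 0.049 and 0.016), the 4 members called there against 4.84% of all genes. In the flox/flox libraries, 2 with and 2 without Cre, the differences were -0.48, -1.01, -0.37 and 0.58. There 0 members were called (adjusted p of these 0.22 to 0.38), against 0.736% of all genes. These values were part of the pooled comparison and are no independent support.

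A test of the difference between the genotype pairs called 0 members and 0 genes of the table (edgeR, 0.0% of all genes). At an unadjusted p under 0.05, 3 members differed, or 4.55%, against 6.12% of all genes, and without the title code 2 members did. For Otud1 the difference between pairs was 0.33 (95% interval -0.15 to 0.81) and for Usp43 0.81 (-0.42 to 2.04), so a moderate difference between genotypes could not be detected at this number of libraries.

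Uchl1 was the most abundant member per kilobase of exon, ahead of a group of broadly expressed proteases. Its mean level was 253.4 CPM per kilobase over the 10 libraries, against 68.8 for Otub1, 63.01 for Usp22, 50.1 for Usp5 and 48.8 for Usp9x, and a median of 9.22 over the members. The lowest was Usp50, a USP thought to lack protease activity, at 0.239 CPM per kilobase, then Usp18 at 0.312 and Usp43 at 0.545. Otub1, which also blocks ubiquitin-conjugating enzymes directly, was not called (0.01, 95% interval -0.18 to 0.20, adjusted p 0.97). The summed level of all members was 6368 to 6766 CPM in control and 6291 to 7012 in BrapcKO.

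**Figure D3:**
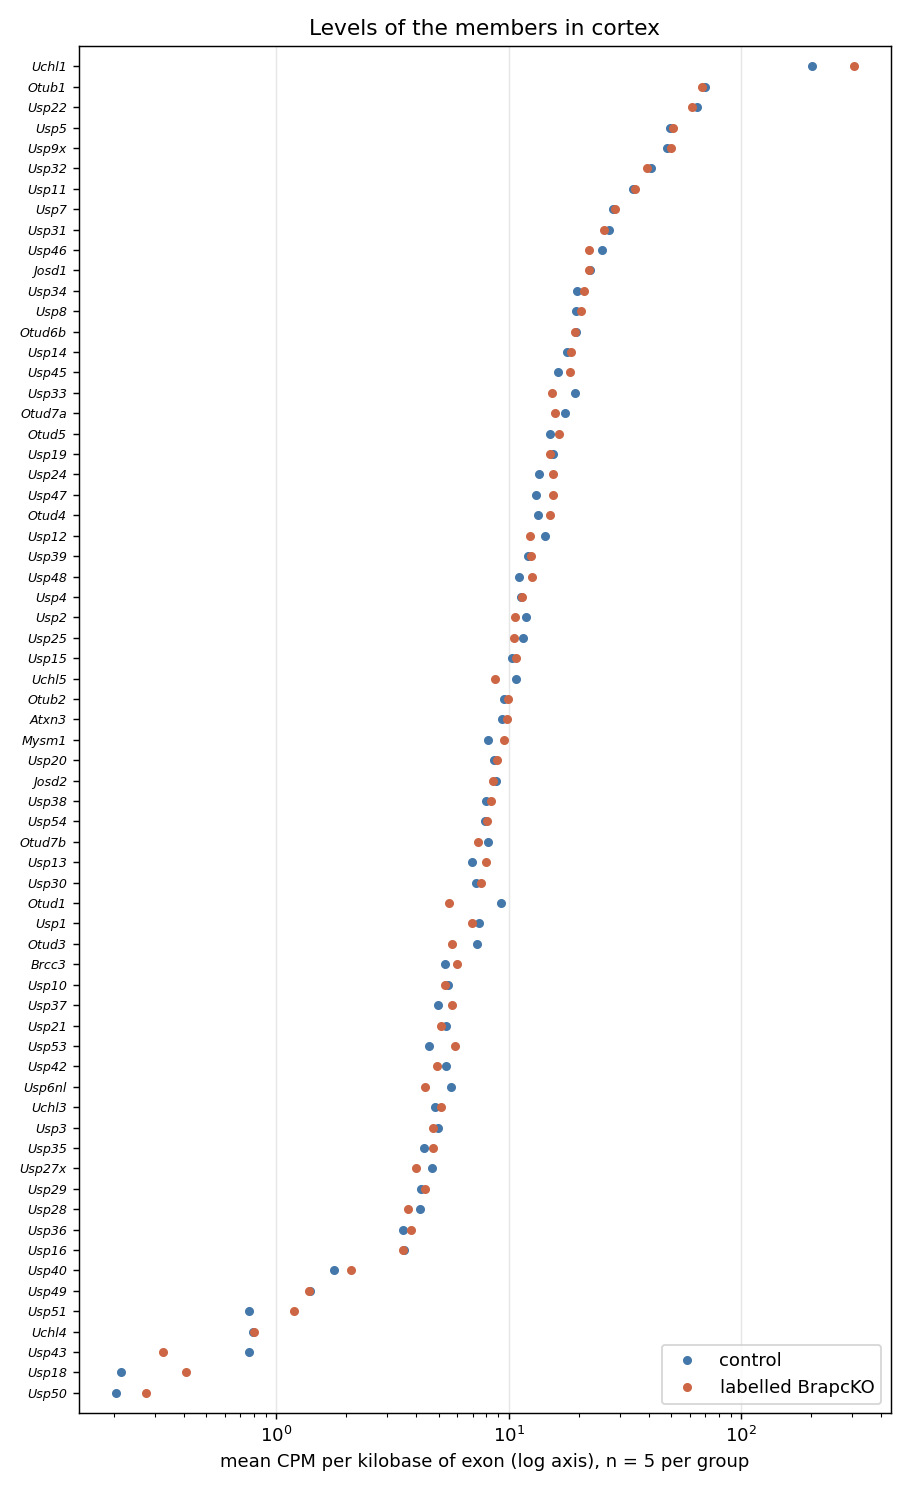
Mean CPM per kilobase of exon of the 66 members (log axis) in control and BrapcKO libraries (n = 5 each), ordered by level. Uchl1 leads at 253.4 over all libraries, Usp50 is lowest at 0.239, and the points of the groups coincide for most genes.

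Usp15, the protease known to act on the Brap protein, was not called. Usp15 stood at 192.7, 195.9, 155.7, 162.8 and 149.1 CPM in control 08, 09, 22, 23 and 24 and at 172.8 to 185.3 CPM in the BrapcKO libraries. The BrapcKO libraries lay inside the control range, which split by title code with the B1 controls above the B2 controls. The log2 difference was -0.02 (95% interval -0.17 to 0.14, adjusted p 0.93). With group as the only term it was 0.06 and with library size as the only scaling 0.01, so it had no stable sign.

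The role groups are small, and their calls are to be read against the 8.07% of all genes called. Of 9 measured proteases of ubiquitin on histones H2A or H2B, 0 were called, with a median of -0.07. Usp22, the catalytic subunit of the SAGA deubiquitinase module, was at -0.06 (95% interval -0.26 to 0.14) and Mysm1, an H2A deubiquitinase, at 0.09 (-0.12 to 0.30). Usp51, which acts on H2A and is X-linked, stood at 0.72 to 2.54 CPM in control and 1.80 to 3.42 in BrapcKO (0.86, 95% interval 0.22 to 1.5, adjusted p 0.10). Of 15 members that act on repair proteins, PCNA or the p53 to Mdm2 axis, 0 were called either, with a median of 0.05. Usp7, which stabilises Mdm2 and p53, was at 0.03, and Usp11, which acts in homologous recombination, at 0.04 (adjusted p 0.88 and 0.87). Brcc3, which cuts lysine-63-linked chains in a complex with BRCA1, was at 0.17, and Usp48, which removes ubiquitin that BRCA1 places on H2A, at 0.11 (adjusted p 0.43 and 0.42).

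Neither proteasome-bound member was called. Usp14, which trims chains on the 19S cap, was at 149.3 ± 13.2 and 154.4 ± 24.0 CPM (0.13, 95% interval -0.08 to 0.34, adjusted p 0.47). Of its exon bases 26.0% are shared with Thoc1 on the other strand. Uchl5, the other one, was at -0.14 (adjusted p 0.52), at -0.34 without BrapcKO 21 (adjusted p 0.16) and at -0.03 without control 08. BrapcKO 21 held 37.6 CPM of it and the other BrapcKO libraries, all B1, 19.8 to 24.9. The B2 controls held 30.9 to 35.4 CPM, and Uchl5 was called between the title codes (0.44 in B2, adjusted p 0.014).

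Members of membrane traffic, mitochondria and synapses gave 1 call, the Rab regulator Usp6nl, among 10, 3 and 3 genes, beside 8.07% of all genes. The synapse list held Usp12, Usp46 and Usp1, and Usp1 is also counted among the repair members above. Usp8, which acts on receptors at endosomes, was at 0.10, and Usp9x, an abundant X-linked protease of growth and polarity proteins, at 0.05 (95% intervals -0.06 to 0.27 and -0.15 to 0.24). Usp2, whose transcript follows the circadian clock, stood at 55.6 to 60.7 CPM in control and 37.0 to 59.7 in BrapcKO (-0.25, adjusted p 0.26), but without BrapcKO 21, the lowest, the difference was -0.04. Usp30, which opposes mitophagy on the mitochondrial outer membrane, was at 0.05 (adjusted p 0.80). Usp46 and its close relative Usp12, both activated by Wdr48 and linked to AMPA receptor turnover, were at -0.15 and 0.01 (adjusted p 0.39 and 0.96). Atxn3, whose repeat expansion in humans causes Machado-Joseph disease, was at 0.01, and the 3 Josephin genes ran from -0.10 to 0.02.

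Of 8 members tied to innate immunity 1 was called, Otud1, beside 8.07% of all genes. Usp18, the interferon-induced protease that removes the ubiquitin-like ISG15, stood at 0.56, 1.23, 0.485, 0.454 and 0.27 CPM in control 08, 09, 22, 23 and 24 and at 0.933, 2.30, 1.18, 0.977 and 0.319 in BrapcKO 04, 05, 06, 07 and 21. The ranges overlapped, with BrapcKO 05 highest. The difference was 0.31 (95% interval -0.57 to 1.19, adjusted p 0.72) and 0.93 with group as the only term (adjusted p 0.37). Its level was too low for a closer bound. Of 9 measured interferon-response genes 0 were called (median 0.62).

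The 6 X-linked members, Brcc3, Otud5, Usp9x, Usp11, Usp27x and Usp51, ran from -0.09 to 0.86 with 0 called. With title code, group and Y-linked score in 1 fit, 0 of the 66 members followed the score at an adjusted p under 0.05 (0.028% of all genes), and 0 at an unadjusted p under 0.05 (1.96% of all genes). The role list that holds Usp6nl also holds Usp39, Usp50, Usp53 and Usp54, whose protease activity was not examined here. Of these 5 members 1 was called, Usp6nl, beside 8.07% of all genes.

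In the fit with title code and group as terms 18 members were called between B2 and B1, 7 higher and 11 lower in B2, or 27.3% against 25.1% of all genes; without control 08 the count was 11. None of the 4 members called for group was among them, but Usp43 and Uchl1 differed at an unadjusted p under 0.05. In B2 Usp43 was at -0.70 (p 0.04, adjusted p 0.12) and Uchl1 at 0.38 (p 0.03, adjusted p 0.094). Usp33, an ER and Golgi protease, stood at 190.7 to 228.5 CPM in the 4 B2 libraries and at 123.0 to 144.2 in the 6 B1 libraries (0.68, SE 0.08, adjusted p 4.4e-05). Otud6b and Usp29, an imprinted gene next to Peg3, were higher in B2 by 0.65 and 0.78, and Usp40 and Usp50 lower, at -0.77 and -2.31 (adjusted p 0.00024 to 0.0005). Usp50 was of very low expression, at 0.14 to 0.283 CPM in B2 libraries and 0.567 to 1.35 CPM in B1 libraries. These genes were chosen after their values were seen. Depth moved with the code: B2 libraries held 26356508 to 28991874 counts and B1 libraries 17188901 to 20955211.

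**Figure D4:**
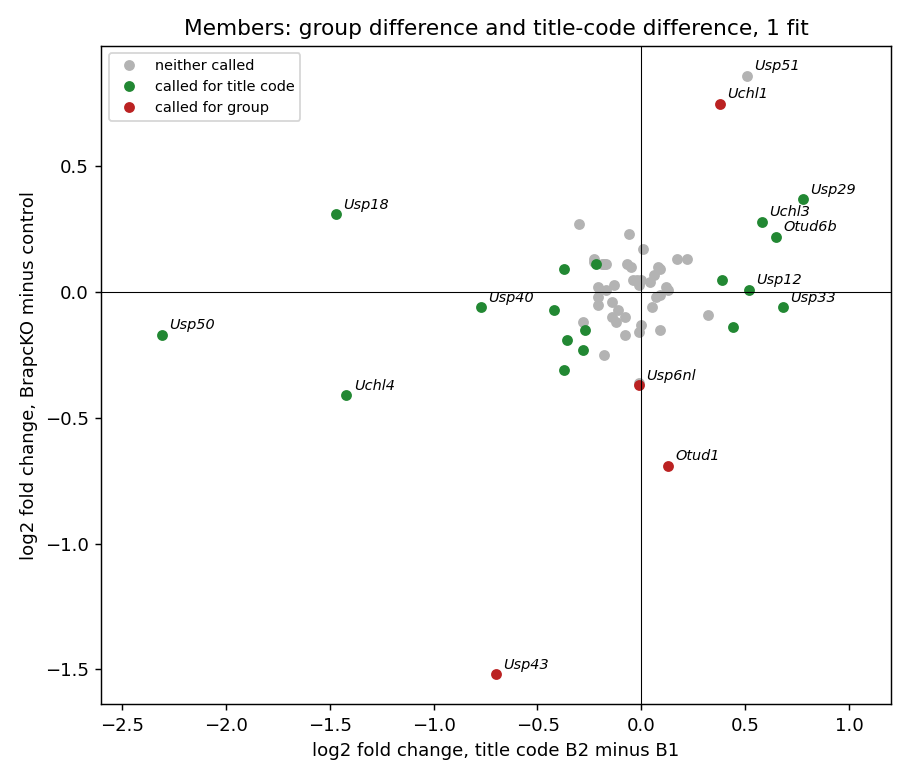
Log2 fold change of the 66 members between groups (vertical) and between title codes (horizontal) from 1 fit. The 4 members called for group (red) are not among the 18 called for title code (green). The green points spread along the horizontal axis from Usp50 at -2.31 to Usp29 at 0.78, and Usp43 (red) was at -0.70 on it.

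Among other genes of the ubiquitin system, 5 lists with 84 measured genes held 0 called by edgeR, against 8.07% of all genes, with a median of 0.01. DESeq2 called 2 of them, against 11.8% of all genes in the same test. In edgeR 11 had an unadjusted p under 0.05 (13.1%, against 22.2% of all genes). The lists were 22 deubiquitinases outside the symbol pattern (Cyld, Bap1, Tnfaip3 and others), 21 partner proteins such as Wdr48 and Gmps, 2 activating enzymes, 30 conjugating enzymes and 9 SUMO or NEDD8 proteases. Their medians ran from -0.05 to 0.04.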

How the data were processed

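Trizol extraction, DNase treatment and Ribo-Zero depletion preceded library construction, per the labels' protocols. The tools named, per the submitters' processing notes, are featureCounts, Subread, FastQC, edgeR and DESeq2, with mm10 and GRCm38. The sources used here give no versions, settings or strand use. The authors deposited 1 table of whole-number counts per gene, whose totals differ between libraries. Symbols and exon lengths came from GENCODE M21 (GRCm38), which matched 14271 of 14276 identifiers.

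Counts of all genes were fitted together in edgeR 4.0.16 (quasi-likelihood test, TMM, robust, title code and group as terms) in R 4.3.3, with Benjamini-Hochberg adjustment across the whole table. An adjusted p under 0.05 is called; unnamed adjusted p-values are from this fit. The low-count filter removed 0 genes. Alternatives were DESeq2 1.42.0, limma-voom (limma 3.58.1), other terms, scalings and filters, each title code alone, and leaving out each library. The genotype pairs were compared within 1 fit of genotype and title code over all 10 libraries, not each alone. Named are the members called, 20 members listed by name, the highest and lowest per kilobase, called genes of the ubiquitin lists (up to 4 per list) and Brap; others named are said to be chosen after their values were seen. The list of ubiquitin genes themselves is not reported here. The members, lists and tests were chosen with earlier results of these data known.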

Additional observations from a re-analysis of the deposited data

Results flagged for a closer look

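In 4 of 50 checks of a named gene within a group, 1 library stood far from the other 4 of its group; chance flags about 1 group in 20. In 3 of the 4 that library was control 24. Control 24 held 472.4 CPM of Uchl1 against 275 to 323 in the other controls, 382.9 CPM of Usp22 against 293 to 306, and 51.1 CPM of Usp30 against 41.7 to 43.3. BrapcKO 21, the only B2 library of its group, held 37.6 CPM of Uchl5 against 19.8 to 24.9 in the other BrapcKO libraries. Uchl5 was called between the title codes (edgeR, 0.44 in B2, adjusted p 0.014). Controls 22, 23 and 24, also B2, held 35.4, 33.4 and 30.9 CPM of it, and the check took no account of the code.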

How the results depend on the processing

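The count of 4 called members became 2 with group as the only term and 1 with title code and Y-linked score, with the Y-linked score alone added, or in the B1 libraries alone. It became 0 in the B2 libraries alone (1 BrapcKO library, assumed to vary like the controls) and between flox/flox libraries. Over all genes the 1152 calls became 617, 320, 94, 415, 54 and 105 in these fits, and 691 with flox/ko set against flox/wt. Leaving out 1 library gave 1 to 6 called members (6 without BrapcKO 05) and 406 to 1454 genes (558 without control 08, 516 without control 09, 406 without BrapcKO 21). Between title codes it gave 11 (without control 08) to 18 members. Of the members, Otud1 alone was called without control 08 and without BrapcKO 21. DESeq2 called 5 members, adding Usp29 (adjusted p 0.049). Limma-voom, both other scalings and a filter of at least 1 CPM in at least 5 libraries called the same 4. The fit with no filter repeated the main one, because the low-count filter had removed 0 genes. Fewer samples enter some of these fits; otherwise the cause was not tested.

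The 4 called members had 1 sign in all fits run, but these fits share libraries, so that is no independent support. The uncalled Mysm1 (0.09) also stayed above 0, while some other uncalled named genes near 0 changed sign or reached 0. Usp8 (0.10) and Usp48 (0.11) were above 0 in each title code and each genotype pair too. With group as the only term Usp15 was 0.06, Usp12 -0.21, Otub1 -0.05 and Usp50 0.46. With the Y-linked score alone added Usp15 was 0.10, Usp14 -0.02, Usp12 -0.25, Otub1 -0.08 and Usp50 1.15. With both terms Usp18 was -0.08, Usp9x 0.00, Usp22 0.00 and Atxn3 -0.08. With library size alone Usp15 was 0.01. In B1 alone Usp9x was -0.06, Usp7 -0.07 and Atxn3 -0.09; in B2 alone Usp15 was 0.14, Usp18 -0.35, Usp12 -0.05, Usp11 -0.04, Usp30 -0.10, Otub1 -0.13 and Uchl5 0.17. Between flox/flox libraries Usp7 was -0.01, Usp12 -0.07, Usp11 -0.21, Usp30 -0.09, Otub1 -0.09 and Brap -0.04, and with flox/ko set against flox/wt Usp18 was 0.00, Usp22 0.04, Atxn3 -0.01 and Usp50 0.08. Leaving out 1 library gave both signs for Usp15 (-0.12 to 0.02), Usp18 (-0.06 to 0.57), Usp9x (-0.07 to 0.10), Usp7 (-0.08 to 0.09), Usp12 (-0.04 to 0.04), Atxn3 (-0.10 to 0.06) and Otub1 (-0.06 to 0.08), and 0.00 to 0.10 for Usp11. No paired analysis was possible because no library number is shared between the groups.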

Other observations

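Reads can be split between genes that share sequence. Of 12 members with over 10% of their 50-base stretches also found in other genes, 6 were called between the title codes (edgeR, adjusted p under 0.05). Beside them, 18 of all 66 members and 25.1% of all genes were called. Shared sequence was measured for the members only. Matches on either strand counted, so genes whose exons overlap a member at its own place on the chromosome were included. Such overlaps lay wholly or mostly on the other strand for Usp14, Usp29, Usp33, Usp34, Usp38, Usp43 and Uchl1. For Usp49 they lay mostly on the same strand. The 6 called members include Uchl4, with 26.2% shared, first with Uchl3 (-1.42 in B2, adjusted p 0.0081), and Usp1, with 21.4% shared, with Gm5841 (0.39, adjusted p 0.044). The others were Usp29, Usp33, Usp34 and Usp50. Members with as much shared sequence that were not called include Usp49, with 49.8% (-0.11, adjusted p 0.48), and Usp14, with 25.4% (0.22, adjusted p 0.12). The genes were chosen after their values were seen, and the part of shared sequence in the title-code difference was not tested.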
